A study of Mus musculus with 6 samples.

Results

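Immediate early genes are genes that a cell transcribes within minutes of a stimulus, before any new protein is made. The 10 described here are Fos, Fosb, Jun, Junb, Jund, Egr1, Egr3, Arc, Nr4a1 and Ier2. They were chosen by gene symbol, and all 10 were among the 12968 genes of the deposited table and among the 12549 genes tested. The question of the comparison is whether the RNA of these genes on tagged ribosomes differed after a stroke.

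The series used RiboTag mice, in which Cre-expressing cells carry a tagged form of the ribosomal protein Rpl22, so that their ribosomes can be pulled down together with the RNA being translated. The series title speaks of astrocytes, while no source used here gives the Cre driver, strain or age. In 3 mice the middle cerebral artery was occluded for 1 h (MCAO), and 3 control mice had no occlusion, with no sham operation described. Mice of both groups were killed after 3 days, and the middle section of the left hemisphere was taken in both groups. Each library is 1 animal, with 2 precipitations pooled, and the replicate numbers below only name the animals.

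Fos, Fosb, Jun, Junb and Jund encode leucine zipper proteins that pair up as the transcription factor AP-1, while Egr1 and Egr3 encode zinc finger factors and Nr4a1 an orphan nuclear receptor. Arc encodes a protein that neurons make at active synapses, and Ier2 a small nuclear protein. In neurons calcium entry and kinase cascades switch these genes on through factors bound at their promoters, such as CREB and SRF, and in glia growth factors and injury do so as well. Their RNAs decay fast, so that a level reflects the recent past of the tissue.

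The deposited values are numbers of reads, scaled by the authors to make libraries comparable, and are called scaled reads below. MCAO 2 was the shallowest library, with 882263 reads, and control 1 the deepest, with 9519548, and 1 read was worth 0.288 scaled reads in control 1 and 3.11 in MCAO 2. A member had between 6 and 1114 reads in a library. Of the marker genes that were looked up, all 12 of astrocytes and all 14 of neurons were in the table. The most abundant astrocyte markers, the glutamate transporter gene Slc1a2 and the aldolase gene Aldoc, were at 14380.3 ± 4177 and 7255 ± 1179.8 scaled reads in controls (SD, n = 3). The most abundant neuron markers, the kinase gene Camk2a and the synaptic gene Snap25, were at 8422 ± 387 and 3422 ± 51.9. RNA of neurons was thus measured along with that of astrocytes, and the cell that a read of Arc or Fos came from is not known. In such bulk libraries fewer cells of a type and less RNA per cell cannot be told apart.

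Promoters are shown for 3 of the genes because Fos and Nr4a1 differed widely between the MCAO animals and Jun differed little. RefSeq promoter entries (GRCm38.p6, the assembly of mm10) matched 6 of the 10 members, namely Fos, Fosb, Jun, Junb, Jund and Nr4a1. Each sequence is the 250 bases before the start that the RefSeq entry uses, read 5′ to 3′ on the gene's strand, and capitals mark the core TGACG of sites that CREB binds and the EGR site GCGGGGGCG on either strand. Fos lies at chr12:85473640-85473889 on the plus strand, Nr4a1 at chr15:101266596-101266845 on the plus strand and Jun at chr4:95052223-95052472 on the minus strand. The windows of Fos and Jun adjoin the RefSeq gene spans given below, while that of Nr4a1 lies inside its gene span, which begins further upstream, so its sequence is that before an internal start.
Fos: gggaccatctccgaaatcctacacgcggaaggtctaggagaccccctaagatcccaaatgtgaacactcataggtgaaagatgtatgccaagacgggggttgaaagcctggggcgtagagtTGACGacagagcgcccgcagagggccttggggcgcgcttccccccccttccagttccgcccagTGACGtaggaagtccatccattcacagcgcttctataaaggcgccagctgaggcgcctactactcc
Nr4a1: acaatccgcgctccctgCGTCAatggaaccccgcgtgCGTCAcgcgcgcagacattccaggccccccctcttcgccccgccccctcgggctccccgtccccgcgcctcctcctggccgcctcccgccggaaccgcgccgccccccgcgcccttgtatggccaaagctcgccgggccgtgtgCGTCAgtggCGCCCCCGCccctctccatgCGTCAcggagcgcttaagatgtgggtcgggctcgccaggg
Jun: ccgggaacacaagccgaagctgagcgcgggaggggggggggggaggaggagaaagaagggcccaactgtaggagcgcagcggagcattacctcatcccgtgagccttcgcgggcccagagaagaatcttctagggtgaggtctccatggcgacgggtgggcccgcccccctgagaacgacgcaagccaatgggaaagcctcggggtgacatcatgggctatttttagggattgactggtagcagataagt

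The core TGACG occurred 4 times in the Nr4a1 window, 2 times in that of Fos, 1 time each in those of Fosb and Junb, and 0 times in those of Jun and Jund. At least 1 such site was found in 17.8% of all 32851 promoter entries over the same 250 bases, at least 2 in 3.9% and at least 4 in 0.137%. The EGR site was found in the windows of Nr4a1 and Fosb, and in 2.57% of all entries. The full CRE TGACGTCA, the AP-1 site TGANTCA and the CArG box that SRF binds were in 0 of the 6 windows, against 1.55%, 6.75% and 1.47% of all entries. These matches describe the letters only. Sites outside the 250 bases or with other letters were not searched for, so 0 matches do not mean that a promoter lacks such sites.

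None of the 10 genes was called different between MCAO and control mice (limma, Benjamini-Hochberg over all genes tested, adjusted p under 0.05), where 3.08% of all genes were called. Egr3 and Nr4a1, 2 of the 10, were at an unadjusted p under 0.05, against 19.3% of all genes. On recovered reads edgeR also called 0 of the 10, with 2 at an unadjusted p under 0.05 (4.18% of all genes were called), and DESeq2 called 0, with 1 at an unadjusted p under 0.05 (4.43% called). Log2 changes of (scaled reads + 1), MCAO over control, ran from -1.23 for Nr4a1 to 0.60 for Ier2, with 5 positive and 5 negative and a median of -0.17. Over all genes the median was -0.01, and 48.7% were positive. The 3 controls were close to each other in most members, and the 3 MCAO animals were not.

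**Figure D1:**
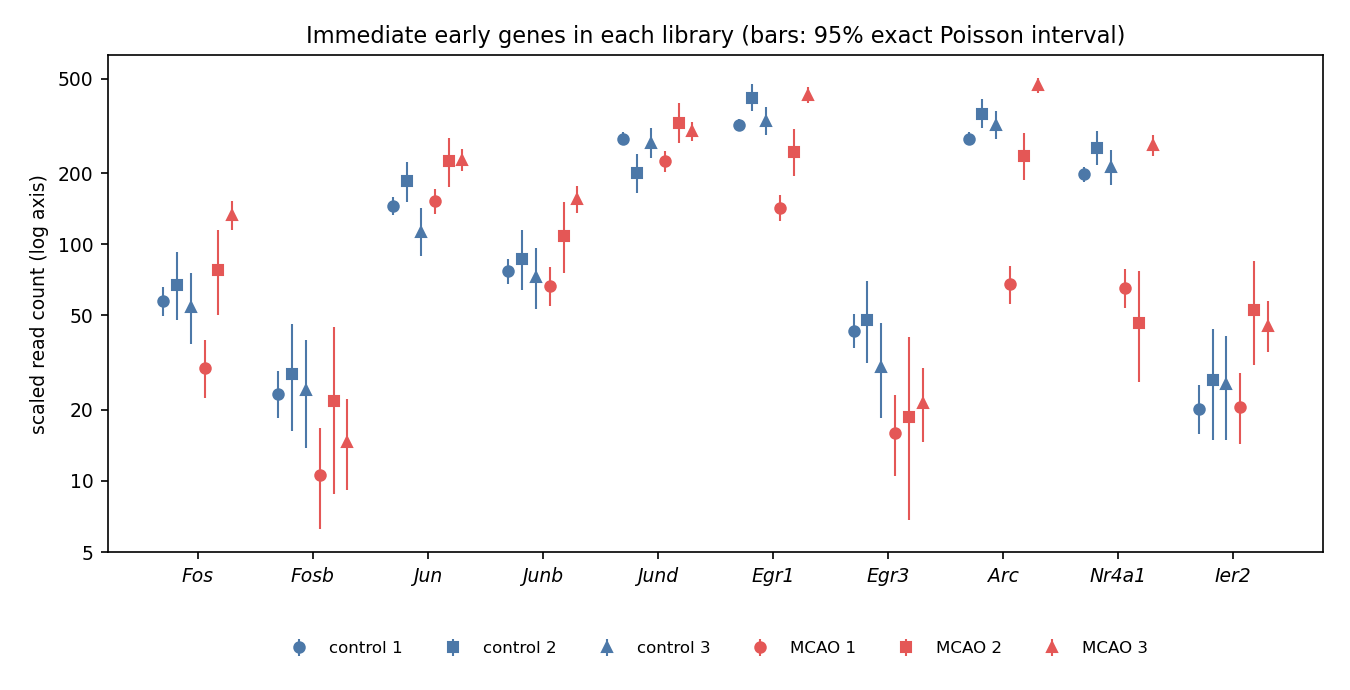
Scaled read count (log axis) of each immediate early gene in the 3 control libraries (blue) and the 3 MCAO libraries (red), where a circle, square and triangle stand for replicates 1, 2 and 3 and bars are 95% exact Poisson intervals of the read count. The red points of Arc run from 67.7 to 469.6 around blue points between 279 and 357, and those of Egr3 lie below all blue points.

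Fos (chromosome 12, 85473890 to 85477274) was at 57.3, 67.4 and 54.3 scaled reads in controls 1, 2 and 3 and at 30.0, 77.8 and 133 in MCAO 1, 2 and 3. One MCAO animal was below all controls and both others were above them, so the groups overlap. Controls averaged 59.7 ± 6.86 and MCAO animals 80.3 ± 51.7 (SD, n = 3 per group). The log2 change was 0.19 (SE 0.39, limma adjusted p = 0.837), with a 95% interval of -0.65 to 1.03. That SE and interval borrow from the spread of all genes, and the SE from the 6 values of Fos alone is 0.62. The 51, 25 and 200 reads behind the MCAO values gave 95% exact Poisson intervals of 22.3 to 39.5, 50.3 to 114.8 and 115.4 to 153 scaled reads, none of which overlap. These intervals cover counting error only.

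Fosb (chromosome 7, 19302696 to 19310118), a close relative of Fos with an isoform that outlasts the stimulus, was at 23.3, 28.4 and 24.1 in controls and at 10.6, 21.8 and 14.7 after MCAO. All MCAO values were below all controls, as in 12.5% of all genes tested, but MCAO 2 was within 2 scaled reads, less than the worth of 1 read in that library, of the lowest control. The log2 change was -0.71 (SE 0.39, limma adjusted p = 0.346), with 18, 7 and 22 reads behind the MCAO values. The difference Fos minus Fosb in log2 was 1.26, 1.22 and 1.14 in controls and 1.42, 1.79 and 3.10 after MCAO. It was higher in all 3 MCAO animals, by 0.90, but the two-sided exact permutation test gave p = 0.1, and no smaller p is possible with 3 animals in each group (0.4 adjusted over the 4 pairs compared).

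Junb (chromosome 8, 84976909 to 84978748), an AP-1 subunit that is induced as fast as Fos, was at 76.8, 86.9 and 72.4 scaled reads in controls and at 66.5, 109 and 155 after MCAO. MCAO 1 was again the lowest and MCAO 3 the highest of all 6. Its log2 change was 0.40 (SE 0.27, limma adjusted p = 0.435), with a 95% interval of -0.17 to 0.97. Among the members, Junb was the one whose log2 values most resembled those of Fos over the 6 libraries (Pearson r 0.93, a description of 6 values that share these libraries).

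Jun (chromosome 4, 95049036 to 95052222), whose product can form AP-1 by itself or with a Fos protein, was at 145, 184 and 113 in controls and at 152, 224 and 228 after MCAO. Control 2 was above MCAO 1, and both other MCAO values were above all controls. Its log2 change was 0.45 (SE 0.21, limma adjusted p = 0.266), with a 95% interval of -0.01 to 0.90. Jund (chromosome 8, 70697739 to 70700616), the subunit that is expressed with little need for a stimulus, was at 279, 200.5 and 269 in controls and at 225, 327 and 301 after MCAO. Its groups overlap, and its log2 change of 0.18 (SE 0.18, limma adjusted p = 0.619) had a 95% interval of -0.21 to 0.58. The difference Junb minus Jund averaged -1.64 ± 0.39 over the controls and -1.42 ± 0.42 over the MCAO animals (SD, n = 3 per group; exact permutation p = 0.5, adjusted p = 0.5).

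Egr1 (chromosome 18, 34861207 to 34864956), a zinc finger factor and a common readout of neuronal activity, was at 321, 417 and 332 scaled reads in controls and at 142, 246 and 427 after MCAO. Its MCAO values were on both sides of the controls, and none of their Poisson intervals overlap. The log2 change was -0.52 (SE 0.29, limma adjusted p = 0.341), with a 95% interval of -1.13 to 0.09. The SE from the 6 values of Egr1 alone is 0.47.

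Egr3 (chromosome 14, 70077317 to 70082613), which Egr1 and other early factors help to switch on, was at 43.2, 47.9 and 30.2 in controls and at 15.9, 18.7 and 21.3 after MCAO. All 3 MCAO animals were below all 3 controls, as in 12.5% of all genes tested. Unlike in Egr1, the MCAO values were close to each other. Controls averaged 40.4 ± 9.17 and MCAO animals 18.6 ± 2.71 (SD, n = 3 per group). The log2 change of -1.06 (SE 0.33) missed the threshold (limma adjusted p = 0.0989), and its 95% interval, -1.77 to -0.36, is not adjusted for the number of genes. The MCAO values rest on 27, 6 and 32 reads. That of MCAO 2 has a Poisson interval of 6.85 to 40.6, which overlaps those of all 3 controls. With library weights, an alternative added after seeing the data, Egr3 was called (-1.04, adjusted p = 0.0340), while 7.98% of all genes were called. The difference Egr1 minus Egr3 was 3.13 ± 0.28 in controls and 3.67 ± 0.59 after MCAO (exact permutation p = 0.3, adjusted p = 0.4).

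Arc (chromosome 15, 74669081 to 74672570) was at 279, 357 and 319.9 scaled reads in controls and at 67.7, 236 and 469.6 after MCAO. MCAO 1 had 21.2% of the control mean, MCAO 2 had 74.2% and MCAO 3 had 147%. The highest MCAO animal was 6.94 times the lowest, while the highest control was 1.28 times the lowest. With 115, 76 and 705 reads behind them, the MCAO values had Poisson intervals of 55.9 to 81.2, 186 to 296 and 436 to 506, none of which overlap. The log2 change was -0.69 (SE 0.46, limma adjusted p = 0.439). That SE borrows from the spread of all genes; the SE from the 6 values of Arc alone is 0.82. Without MCAO 1 the log2 change of Arc was 0.07 and without MCAO 3 it was -1.32. The difference Arc minus Jun was 0.94, 0.95 and 1.49 in controls and -1.15, 0.08 and 1.04 after MCAO (exact permutation p = 0.3, adjusted p = 0.4).

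Nr4a1 (chromosome 15, 101253902 to 101274795) was at 198, 255 and 211 in controls and at 65.3, 46.7 and 262 after MCAO. Here MCAO 1 and MCAO 2 were both low, at 29.5% and 21.1% of the control mean, and MCAO 3 was above every control. The value of MCAO 2 rests on 15 reads, with a Poisson interval of 26.1 to 76.9, below that of the lowest control. The log2 change was -1.23 (SE 0.44, limma adjusted p = 0.144; SE 0.76 from its 6 values alone). Without MCAO 3 it was -1.98 and called (adjusted p = 0.000529), where 1.15% of all genes were called. MCAO 3 thus decides the call, and edgeR and DESeq2 on all 6 libraries gave -0.66 and -0.81.

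Ier2 (chromosome 8, 84661331 to 84662852) was at 20.1, 26.6 and 25.7 scaled reads in controls and at 20.6, 52.9 and 45.3 after MCAO. MCAO 1 was among the controls, and both other MCAO values were above them. For Ier2 the log2 change was 0.60 (SE 0.37, limma adjusted p = 0.403), with a 95% interval of -0.20 to 1.39, and the value of MCAO 2 rests on 17 reads.

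**Figure D2:**
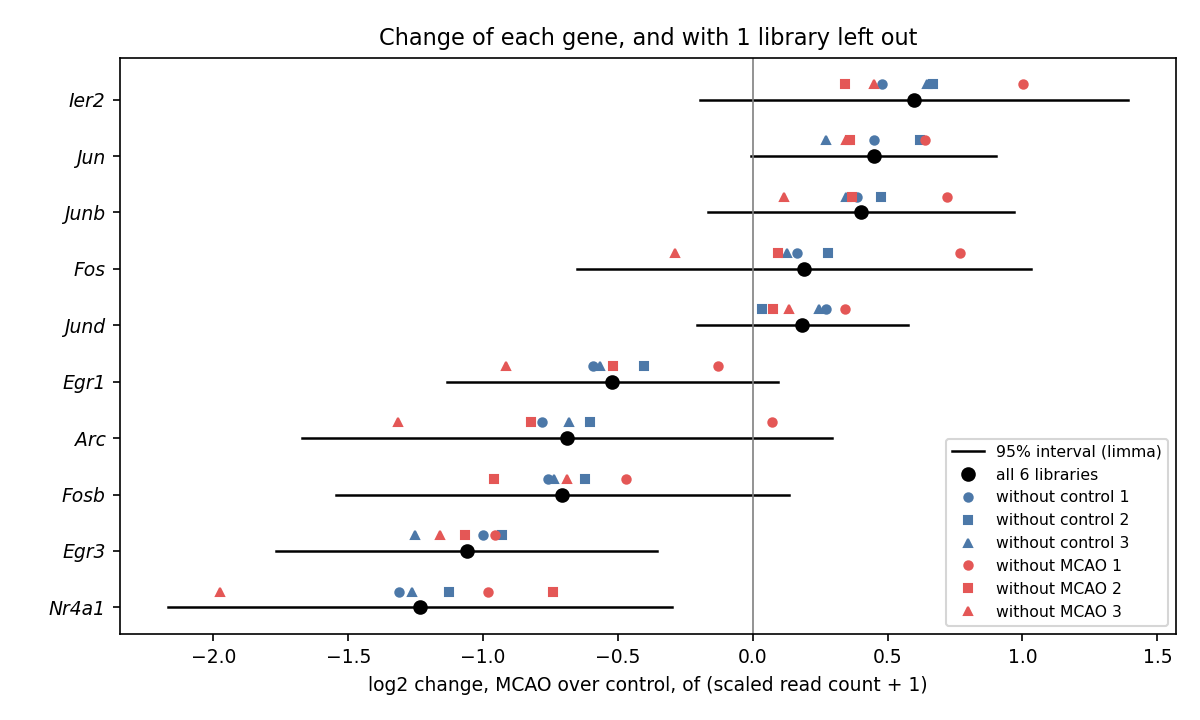
Log2 change of (scaled read count + 1), MCAO over control, of each gene from all 6 libraries (black point, with its 95% limma interval), and from 5 libraries with 1 left out (blue for a control, red for an MCAO library). The points of Arc run from -1.32 without MCAO 3 to 0.07 without MCAO 1, and those of Fos from -0.29 to 0.77.

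The animals of the MCAO group differed from each other in these genes. MCAO 1 was the lowest of the 3 in 9 of the 10 members, against 31.9% of all genes tested, and MCAO 3 the highest in 7, against 30.4%. MCAO 1 was the lowest of all 6 libraries in 6 members (13.3% of all genes) and MCAO 3 the highest of all 6 in 6 members (13% of all genes). The members share these animals and some vary together (Arc and Egr1, Pearson r 0.97), so these are not 10 separate observations. Over the 10 members the median log2 distance from the control mean was -1.07 in MCAO 1, 0.09 in MCAO 2 and 0.43 in MCAO 3, and -0.08, 0.17 and -0.08 in controls 1, 2 and 3. The same median over all genes was between -0.01 and 0.01 in every library.

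The SD of log2 values was larger after MCAO than in controls in 8 members, against 51% of all genes, with Jun and Egr3 the exceptions. Its median over the members was 0.66 after MCAO and 0.20 in controls, and over all genes 0.25 and 0.24. The SD after MCAO was 1.41 for Arc, 1.31 for Nr4a1, 1.07 for Fos and 0.79 for Egr1. Among genes within 2-fold of the same mean, an SD at least as large was seen in 0.0585% of 3417 genes for Arc, 0.088% of 4543 for Nr4a1, 0.282% of 3190 for Egr1 and 0.556% of 5215 for Fos. The share was 4.21% for Junb, 10.6% for Ier2, and between 17.9% and 78.8% for Jun, Jund, Fosb and Egr3. In controls the share was between 13.7% for Jun and 91% for Fosb. Poisson intervals of 2 animals did not overlap in 18 of 30 MCAO pairs over the members and in 5 of 30 control pairs. The width of such intervals depends on depth, which differed between the libraries. The same count over all genes was not made, so these counts describe the members only.

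**Figure D3:**
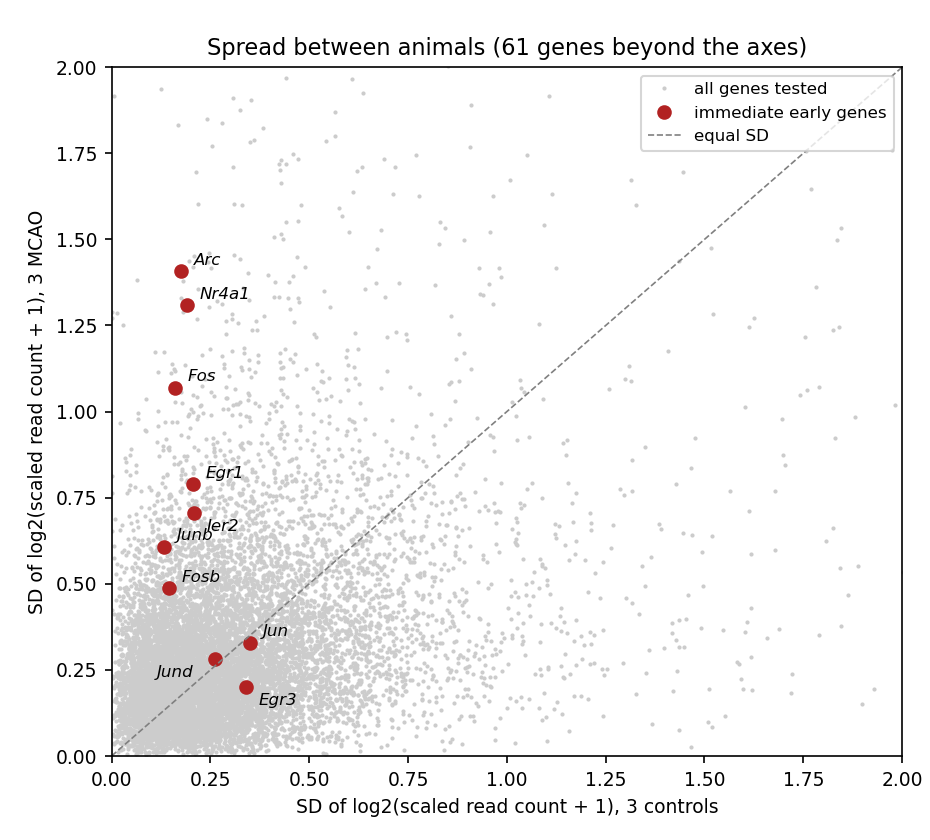
SD of log2(scaled read count + 1) over the 3 MCAO libraries against that over the 3 control libraries, for all genes tested (grey) and the immediate early genes (red), with a dashed line at equal SD. Arc, Nr4a1 and Fos lie above 1 on the vertical axis and below 0.2 on the horizontal one, and 61 genes lie beyond the axes.

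Marker genes of brain cell types were set beside this pattern. The 14 neuron markers summed to 24368, 28337 and 25201 scaled reads in controls and to 26674, 22858 and 22575 after MCAO, so that MCAO 1, the animal with the least Arc and Egr1, had the most neuron marker RNA of its group. Limma called 0 of the 14 (0 at an unadjusted p under 0.05). The 10 markers of striatal projection neurons summed to 2628, 2762 and 2562 in controls and to 1661, 1244 and 1148 after MCAO, and 8 of the 10 fell, against 0.789% of all genes. In these the order of the MCAO animals was the reverse of that of Arc, Egr1 and Fos. The 12 astrocyte markers summed to 41536, 25891 and 40139 in controls and to 30097, 34726 and 40002 after MCAO. Limma called 1 of the 12, Gfap, which rose from 576 ± 64.9 to 6372 ± 1460 (SD, n = 3 per group). That rise is part of the sums, while the median log2 change of the 12 was -0.19. Among the MCAO animals, MCAO 1 was lowest in 9 of the 12 (31.9% of all genes). MCAO 3 was highest in 8 of the 12 (30.4% of all genes). The 12 microglia markers summed to between 598 and 812 in controls and between 2056 and 2850 after MCAO, and 8 of 12 rose, against 2.3% of all genes. Among those that rose, Tyrobp, Trem2 and Cd68 averaged under 10 scaled reads in controls. They passed the filter, a mean of at least 10, only through their MCAO values. Of 12 endothelial markers 7 were in the table, summing to between 264 and 438 in controls and between 292 and 350 after MCAO. Cdh5, Tek and Kdr were among those with no row under their symbols. The part of these cell types in the levels of the immediate early genes was not tested.

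**Figure D4:**
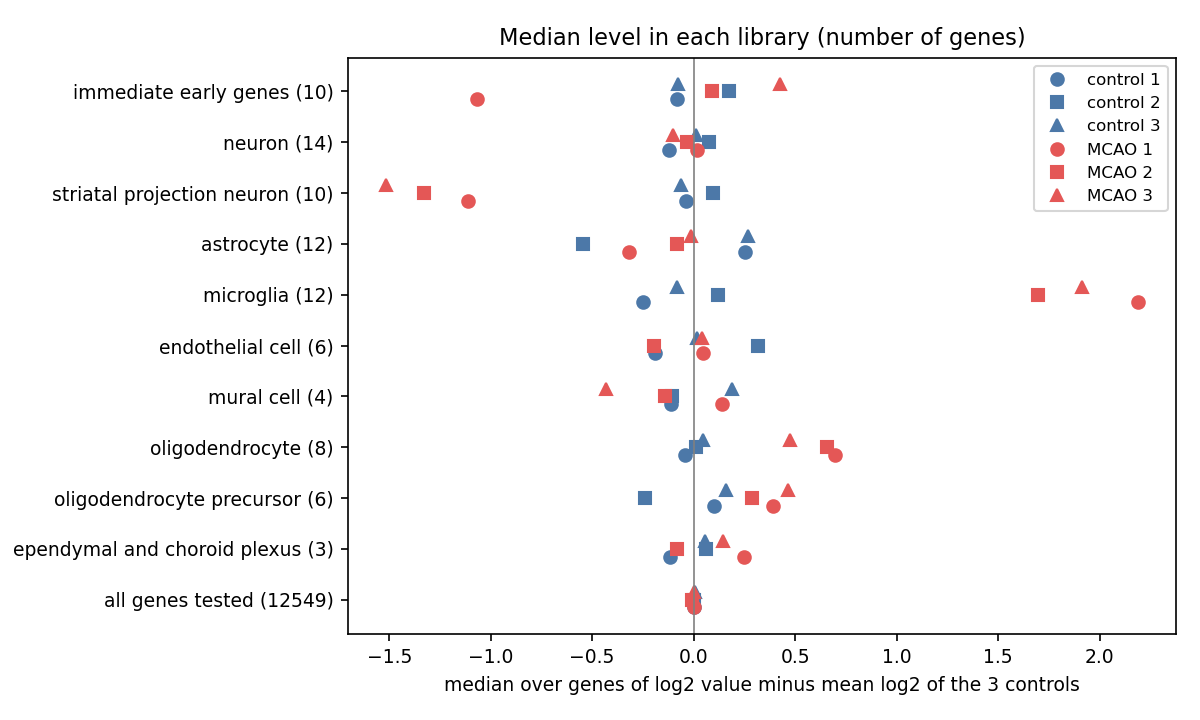
Median over genes of the log2 distance from the mean of the 3 controls, for the immediate early genes, 9 lists of cell type markers and all genes tested, with 1 point per library (blue control, red MCAO). The immediate early genes of MCAO 1 lie at -1.07 while the neuron markers of all 6 libraries lie between -0.12 and 0.07.

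The genes whose levels over the 6 libraries were most like the mean of the standardised log2 values of the 10 members were Spry4, Gldc, Pfkfb3, Pygb and Tbc1d1, in that order, with Pearson r from 0.99 down to 0.98. This is a description of 6 values per gene, picked from all genes tested, and says nothing of shared function. Spry4 was at 48.3, 49.7 and 46.8 scaled reads in controls and at 31.8, 52.9 and 59.3 in MCAO 1, 2 and 3. Pygb was at 1338, 1332 and 1251 in controls and at 941, 1344 and 1431 after MCAO. In both, MCAO 1 was the lowest and MCAO 3 the highest of all 6 libraries, as in the member mean by which they were picked. Within the members, the closest pair was Arc and Egr1 (r 0.97), Nr4a1 was closest to Egr1 (0.83), Jun and Ier2 to Junb (0.83 and 0.85), Fosb and Egr3 to each other (0.80) and Jund to Ier2 (0.65). Egr3 and Ier2 were the least alike (-0.41).

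Other members of the same families were looked up from lists written from general knowledge. The 9 AP-1 family and partner genes tested include Fos, Fosb, Jun, Junb and Jund. Limma called 0 of the 9 (1 at an unadjusted p under 0.05), with a median log2 change of 0.19. The median of the 4 that are not among the 10 members was also 0.19. The most abundant beside the members, Mafg and Jdp2, which encode a small Maf protein and a Jun partner, averaged 193 ± 13.5 and 99.2 ± 9.65 over the controls and 219 ± 57.9 and 117 ± 23.1 over the MCAO animals (SD, n = 3 per group). Fosl2, a later acting Fos relative chosen after its values were seen, was at 88.6, 94.0 and 64.9 in controls and at 48.8, 52.9 and 63.9 after MCAO (-0.56, limma adjusted p = 0.204). Fosl1 and Atf3 were looked up but had no row under these symbols in the table.

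Of the 6 EGR family and corepressor genes, limma called 0 (3 at an unadjusted p under 0.05), with a median of -0.79, and Nab1, which encodes a corepressor of EGR proteins, was at 144 ± 11.2 and 142 ± 25.9. Egr4 was at 94.7, 113.5 and 103 in controls and at 40.0, 31.1 and 92.6 after MCAO, with MCAO 3 just under the controls and both others far below (-1.07, SE 0.32, limma adjusted p = 0.0913). Egr2, chosen after its values were seen, had 72, 14 and 15 reads in controls, or 20.7, 24.8 and 22.6 scaled reads. After MCAO it had 0, 1 and 39 reads, where MCAO 1 stands at the floor of the table, which can hide 1 read, and MCAO 3 is at 26.0 scaled reads. Egr2 was not called (-1.97, SE 0.77, limma adjusted p = 0.179), and edgeR gave a log2 change of -0.99. Without MCAO 3 both Egr2 (limma adjusted p = 0.0485) and Egr4 (-1.52, adjusted p = 0.0105) were called, where 1.15% of all genes were called. That setting leaves out the MCAO library in which both genes were highest.

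Of the 3 NR4A receptor genes, Nr4a1 included, limma called 0 (2 at an unadjusted p under 0.05), with a median of -1.07. Leaving Nr4a1 aside, the median was -0.74. Nr4a3 was at 70.5, 78.1 and 90.5 in controls and at 52.9, 18.7 and 51.3 after MCAO, with all MCAO animals below all controls (-1.07, SE 0.34, limma adjusted p = 0.108). Nr4a2, a receptor also needed by dopamine neurons, was at 96.99 ± 20.5 and 71.8 ± 6.05 (SD, n = 3 each; -0.41, adjusted p = 0.309).

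Among 17 tested genes of neuronal activity effectors, Arc included, limma called 1, which fell, with a median of -0.10 (5 at an unadjusted p under 0.05). This was Arl4d, a small GTPase gene, at 105, 105 and 96.6 in controls and 49.4, 62.2 and 62.6 after MCAO (-0.81, SE 0.21, adjusted p = 0.0479). It was not called with any 1 of the 6 libraries left out (adjusted p 0.0703 to 0.156), nor with a mean of at least 50 (0.0511), TMM scaling (0.0526) or no intensity trend (0.0916). Npas4, an activity-dependent transcription factor gene of neurons chosen after its values were seen, was at 14.97, 56.8 and 27.2 in controls and at 10.6, 21.8 and 29.3 after MCAO, so that here the controls varied as well.

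Of 34 tested rapid response regulators, Ier2 included, limma called 1, which fell, with a median of 0.04 (6 at an unadjusted p under 0.05). This was Per1, a circadian clock gene that CREB can induce, at 284, 309 and 281 scaled reads in controls and 139, 143 and 155 after MCAO (-0.996, SE 0.15, adjusted p = 0.00192). The MCAO animals agreed closely in Per1, unlike in Arc or Nr4a1. Chosen after their values were seen, the antiproliferative gene Btg2 was at 37.1, 112 and 154 and the MAP kinase phosphatase gene Dusp1 at 64.1, 71.5 and 183 in MCAO 1, 2 and 3. Their controls were at 63.6 to 78.1 and 73.9 to 121, so that in both, as in Fos, MCAO 1 was the lowest and MCAO 3 the highest of all 6 libraries. Over the 33 tested genes of this list other than Ier2, MCAO 1 was the lowest MCAO animal in 13 (31.9% of all genes). MCAO 3 was the highest MCAO animal in 18 of the 33 (30.4% of all genes).

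Of 27 tested factors that act upstream of these genes, limma called Stat3, which rose, and 0 fell, with a median of -0.20 (9 at an unadjusted p under 0.05). Stat3, a transcription factor gene of cytokine signalling, was at 168, 161 and 166 in controls and 311, 258 and 347 after MCAO (0.87, SE 0.16, adjusted p = 0.00778). It was not called without MCAO 3 (adjusted p = 0.0658) or with no intensity trend in limma (adjusted p = 0.0759). Of 19 listed genes of tissue injury that AP-1 is known to act on, 10 were tested, 8 rose and 0 fell, with a median of 2.701, where 2.3% of all genes rose and 0.789% fell. Some could pass the filter on the mean through their MCAO values alone, so the 10 do not stand for the list. The most changed were the secreted phosphoprotein gene Spp1 (4.49), the protease inhibitor gene Timp1 (4.14, which depends on the floor in controls and was not called without MCAO 3, adjusted p = 0.0560) and the filament gene Vim (3.93). Vim was at 66.5, 67.4 and 55.8 in controls and 726, 806 and 1594 after MCAO, above all controls in every MCAO animal. Microglia markers, with a median of 1.89, were higher in the same libraries, and some of these also passed the filter through their MCAO values. The RNAs of the AP-1 genes were not called in those libraries, and AP-1 protein was not measured. What raised the injury genes was not tested.

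**Figure D5:**
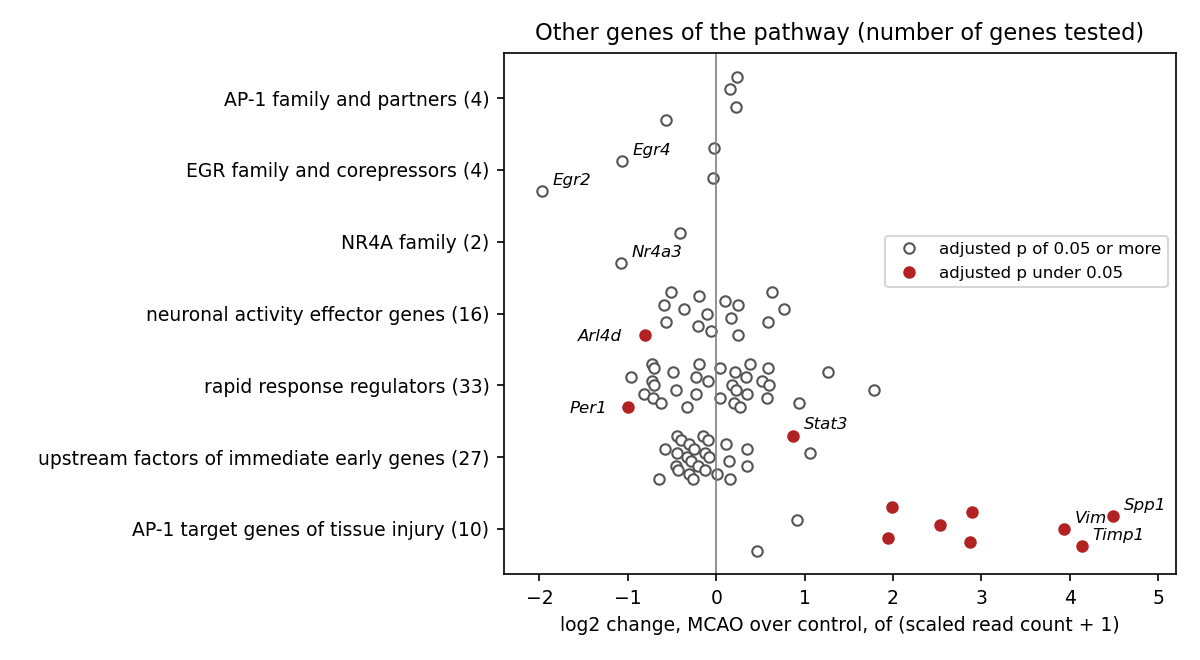
Log2 change of (scaled read count + 1), MCAO over control, of each tested gene of 7 lists other than the 10 members, with filled points at a limma adjusted p under 0.05 and heights within a list set only to part the points. Filled points are Arl4d and Per1 on the left and Stat3 and 8 injury genes on the right.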

How the data were processed

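RNA of ribosome precipitates of 6 mice was sequenced as TruSeq libraries of polyA RNA, per the labels' protocols. The authors deposited a normalised signal per gene, which the values show to be reads divided by a constant of each library. Build mm10 and the tools DESeq2, HISAT2, CASAVA 1.8, R 3.3.1 and Partek 6.6 come from the submitters' processing notes, which state no role; no source used here gives the counting, strand setting or gene filter. Dividing each column by its own step gave whole reads, to within 0.1, for 99.95% of the values above the floor of 1 in control 1 and 100% in the other 5 libraries; a stricter reading of the lowest values alone held for MCAO 2 only. A value of 1 stands for 0 reads, or for up to 3 in control 1 and up to 1 in MCAO 1 and MCAO 3. The 3 reads that a count of 0 allows equal 0.863 to 9.33 scaled reads.

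Log2(value + 1) was tested with limma 3.58.1 (R 4.3.3; intensity trend, two-sided) over genes with a mean of at least 10, without batch or pairing terms, and Benjamini-Hochberg adjusted p under 0.05 was called. Nothing says how the 2 technical replicates per animal were joined. The scripts were tested on simulated data. Alternatives were edgeR 4.0.16 and DESeq2 1.42.0 on recovered reads, other pseudocounts, filters, scalings and moderation, and leaving out each library. The members and lists were chosen with earlier results of these data known. Named genes are the 10 members, in each other list up to 3 called genes with the largest change or else the 2 most abundant, the 2 most abundant neuron and astrocyte markers, and the 5 most alike genes; others are said to be chosen after their values were seen. No gene in RefSeq overlaps a member.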

Additional observations from a re-analysis of the deposited data

How the results depend on the processing

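The 10 immediate early genes were fitted under 19 alternatives, and with a mean of at least 50 only 7 of them passed the filter. Called members numbered 0 in every alternative but the 2 given above, Nr4a1 without MCAO 3 (-1.98) and Egr3 with library weights (-1.04). Direction reversed for Arc without MCAO 1 (0.072), Fos without MCAO 3 (-0.29), Jund without the shallowest library of each group, chosen after seeing the data (-0.075), and Junb minus Jund without MCAO 3 (-0.019). The cause was not tested. With 1 library left out the changes of Nr4a1 lay between -1.98 and -0.74, of Arc between -1.32 and 0.072, of Fos between -0.29 and 0.77, and of Junb minus Jund between -0.019 and 0.44. Over all genes 387 were called, 288 higher and 99 lower. With 1 library left out there were 144 to 304 called (144 without MCAO 3, 225 without control 1, 235 without MCAO 2 and 245 without control 3), 116 to 220.0 higher and 22 to 97 lower. There were 181 higher with a mean of at least 50, 157 called (139 and 18) with no intensity trend, 169 lower by DESeq2, 231 lower without the shallowest library of each group, and 1002 called (566 and 436) with library weights. Among other named genes the sign changed for Snap25 with quantile normalisation (-0.0025), Npas4 with library weights (0.054) and, with 1 library left out, for Snap25 (-0.052 to 0.17), Dusp1 (-0.44 to 0.31), Nab1 (-0.18 to 0.064), Mafg (-0.051 to 0.27) and Btg2 (-0.15 to 0.87). Depth limits Egr3, Fosb, Nr4a1 and Ier2 most, with 6, 7, 15 and 17 reads in MCAO 2. No paired analysis was possible because the labels give no replicate numbers shared between the groups.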
